A study of Arabidopsis thaliana with 9 samples.

Results

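IAA30 (AT3G62100) and GH3.17 (AT1G28130) are 2 auxin genes of Arabidopsis thaliana, described here across 9 Affymetrix ATH1 arrays of T87 cells, among 13356 genes read on those arrays. Both were picked by name because of how their levels differed between the 3 groups of arrays, so their values are given as a description with no test. T87 is a wild-type suspension culture of undifferentiated cells, and each group held 3 biological replicates. Intact cells were taken from the culture at 4 days. Osmotic cells came from the same stage and stood for 3 h in medium with 0.4 M mannitol. Protoplasts had their walls digested for 1.5 h with 1% cellulase and 0.5% pectolyase in 0.35 M mannitol, were washed 3 times, and then stood for 3 h in medium with 0.4 M mannitol. The labels describe no mock medium change for the intact group, and they do not say whether any medium held added auxin, so neither can be told apart from mannitol or from wall digestion in these groups. Each gene is read by a single probe set assigned to it alone (251246_at for IAA30 and 259596_at for GH3.17).

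Auxin acts by bringing Aux/IAA proteins to the TIR1/AFB receptors, which leads to their breakdown and frees auxin response factors to switch on target genes. Aux/IAA proteins are thus repressors of the auxin response, and many of their genes are themselves switched on by auxin. IAA30 belongs to the few Aux/IAA proteins that lack the degron through which auxin triggers breakdown, and its gene is known as a target of the embryo regulator LEC2. GH3 proteins join free auxin or other hormones to amino acids. For auxin this stores or removes the free hormone, and GH3.17 joins indole-3-acetic acid to glutamate.

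IAA30 was lowest in intact cells, higher in osmotic cells and highest in protoplasts. Its intensity, on the arrays' linear scale, was 212, 176 and 349 in intact replicates 1, 2 and 3. In osmotic cells it was 3142, 2500.3 and 1573, and in protoplasts 7456, 6273 and 5181. No array of one group reached into another group, and the order intact, osmotic, protoplast held for every array. Group means were 246 ± 91.6, 2405 ± 788 and 6303 ± 1138 (SD, n = 3).

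On the scale log2(intensity + 16), which understates the fold change of dim genes, the IAA30 level was 7.98 ± 0.48 in intact cells, 11.19 ± 0.50 in osmotic cells and 12.61 ± 0.26 in protoplasts (SD, n = 3). The osmotic minus intact difference was 3.21 ± 0.31 (SE), a 9.25-fold difference. The protoplast minus intact difference was 4.63 ± 0.31, or 24.8-fold. The SE of this and later differences comes from a limma fit of all arrays, which draws each gene's spread towards that of all genes. Where a gene's own spread is wide, as for GH3.17, the SE is thus smaller than that spread alone would give. Protoplasts exceeded osmotic cells by 1.42 ± 0.31, or 2.68-fold. Between same-numbered arrays the osmotic minus intact difference was 3.79, 3.72 and 2.12 for replicates 1, 2 and 3. The protoplast minus intact difference was 5.03, 5.04 and 3.83. Of the 13356 genes, 30 had a larger difference than IAA30 in osmotic cells and 164 in protoplasts, both against intact cells. IAA30 was picked on such differences, so these ranks are description and add no support.

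GH3.17 had another pattern, with a similar level in intact and osmotic cells and a lower one in protoplasts. Its intensity was 3433, 3828 and 714 in intact replicates 1, 2 and 3, and 3909, 3238 and 1019 in the osmotic replicates. In protoplasts it was 211, 328 and 163. The intact and osmotic arrays overlapped, while every protoplast array lay below every array of the other groups. Group means were 2658 ± 1695, 2722 ± 1513 and 234 ± 84.9 (SD, n = 3).

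The GH3.17 level on the log2(intensity + 16) scale was 11.06 ± 1.34 in intact cells, 11.21 ± 1.04 in osmotic cells and 7.91 ± 0.48 in protoplasts (SD, n = 3). The osmotic minus intact difference of 0.15 ± 0.68 (SE) was smaller than the spread within either group. Between same-numbered arrays the difference was 0.19, -0.24 and 0.50 for replicates 1, 2 and 3, and its SE was 0.35 with the replicate number as a block, an alternative added after the data had been seen. The mean difference was -0.62 without intact replicate 3 and 0.75 without osmotic replicate 3. The protoplast minus intact difference was -3.14 ± 0.68 and the protoplast minus osmotic difference -3.29 ± 0.68, so that protoplasts held 0.113 and 0.102 times the other levels. Between same-numbered arrays, replicates 1, 2 and 3 had protoplast minus intact differences of -3.92, -3.48 and -2.02. Their protoplast minus osmotic differences were -4.11, -3.24 and -2.53, so both were smallest in size in replicate 3. Of all genes, 101 had a lower protoplast minus intact difference than GH3.17, and 20 had a lower protoplast minus osmotic difference. GH3.17 too was picked on such differences, so its ranks add no support.

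**Figure D1:**
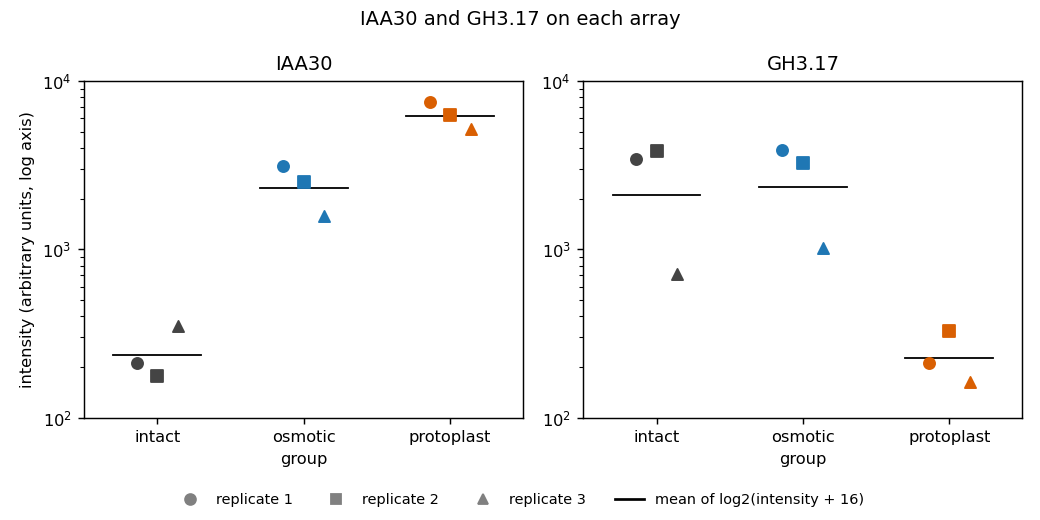
Intensity (arbitrary units, log axis) of IAA30 and GH3.17 on each of the 9 arrays by group, with marker shapes for replicates and bars at the mean of log2(intensity + 16). IAA30 lies between 176 and 349 in intact cells and between 5181 and 7456 in protoplasts, whereas GH3.17 lies between 163 and 328 in protoplasts and its intact and osmotic replicates 3 sit below the other arrays of their groups.

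Replicate 3 stood apart from replicates 1 and 2 in the level of GH3.17 in intact and osmotic cells. It was below the mean of replicates 1 and 2 by a ratio of 5.09 in intact cells, 3.51 in osmotic cells and 1.65 in protoplasts, on the linear scale. On the log2 scale intact replicate 3 differed by -2.32 from the mean of the other two, and 0.24% of all genes were lower by that measure. The osmotic replicate 3 differed by -1.79, with 0.72% of genes lower, and the protoplast one by -0.64, with 10.5% lower. The spread of GH3.17 within groups exceeded that of 99.1% of all genes, against 71.9% for IAA30. IAA30 in intact replicate 3 was higher, with a log2 difference of 0.81 from the mean of the other two, and in osmotic replicate 3 it was lower, with -0.83. With replicates 1 and 2 alone, the IAA30 differences from intact cells were 3.75 in osmotic cells and 5.04 in protoplasts, and the GH3.17 differences were -0.03 and -3.70.

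Facts of the whole series bear on these values. Each array had been scaled to the same trimmed mean, and median intensity was 152 to 156 in intact, 145 to 163 in osmotic and 116 to 131 in protoplast arrays. The median log2 difference of all genes between protoplasts and intact cells was -0.10 with the deposited scaling, 0.19 with each array's median set equal and -0.34 after centring on hybridisation controls. Across these scalings the protoplast minus intact difference lay between 4.40 and 4.93 for IAA30 and between -3.38 and -2.85 for GH3.17. The ratio of 3-prime to 5-prime actin signal, a measure of RNA integrity, was 1.67 to 2.11 in intact, 1.80 to 2.06 in osmotic and 2.12 to 2.46 in protoplast arrays, and its part in the results was not tested. The same ratio for GAPDH overlapped between groups, at 0.961 to 1.20, 0.926 to 1.03 and 1.01 to 1.07. In bulk samples such as these, fewer cells with a transcript and less of it per cell cannot be told apart. Of 10 markers of other cell types, 3 were measured, the root hair genes EXPA7 and EXPA18 and the guard cell gene FMA, and none passed in any comparison, with 0 at an unadjusted p under 0.05 in limma. None was listed at 0, and their summed intensity was 35.8 to 93.1 in intact, 24.1 to 64.8 in osmotic and 37.5 to 78.1 in protoplast arrays.

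The rest of the auxin pathway was read from lists of 238 genes in 9 groups, of which 30 genes were measured, IAA30 and GH3.17 among them. Of the other 28, 20 have a gene name in the annotation and 8 are given by locus code. Lists of auxin response factors, of receptors with their ubiquitin ligase and corepressors, of auxin transport and of SAUR genes had 0 members with a probe set assigned to that gene alone by the array annotation used, and were not analysed here. In osmotic against intact cells, 2 of the 28 rose and 0 fell (limma adjusted p under 0.05 over all genes), where 3.58% of all genes rose and 3.76% fell, with 26 not passing. At an unadjusted p under 0.05 in limma, 4 were higher and 0 lower. The median log2 difference of the 28 was 0.12 against 0.01 for all genes. In protoplasts against intact cells, 8 rose and 1 fell, beside backgrounds of 15.8% and 29.2% of all genes, and the median was 0.17 against -0.10. In protoplasts against osmotic cells, 5 rose and 2 fell, beside 13.3% and 25.7%, and the median was 0.18 against -0.14. By mean level over all arrays, 9 of the 28 lie outside the dimmest 40% of all genes, GH3.3 and GH3.1 among them through their protoplast arrays. Most of these genes were thus read near the dim end of the arrays.

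Of 29 listed Aux/IAA genes, 7 were measured, IAA30 among them. Among the other measured repressors, IAA18, a canonical Aux/IAA gene, went the same way as IAA30 with smaller differences. Its intensity was 104, 86.3 and 76.0 in intact cells, 219, 242 and 148 in osmotic cells and 531, 419 and 474 in protoplasts, and no group overlapped another. IAA18 rose by 1.04 ± 0.21 in osmotic cells (SE, limma adjusted p = 0.021) and by 2.23 ± 0.21 in protoplasts (limma adjusted p = 3.24e-05), both against intact cells on the log2 scale. Protoplasts exceeded osmotic cells by 1.19 ± 0.21 (limma adjusted p = 0.0018). The osmotic call ended without intact replicate 2 (limma adjusted p = 0.0725) or 3 (0.0757) and without osmotic replicate 1 (0.0713) or 2 (0.0834), and with centring on hybridisation controls (0.0608).

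The remaining 5 measured Aux/IAA genes, IAA20, IAA29, IAA31, IAA33 and IAA34, did not pass in any comparison. IAA20, whose protein also lacks the degron, had log2 differences from intact cells of 0.59 ± 0.37 in osmotic cells and 0.41 ± 0.37 in protoplasts (SE). IAA34 had 0.76 ± 0.30 and 0.46 ± 0.30, and IAA29 -0.21 ± 0.63 and -0.86 ± 0.63. IAA31 and IAA33 lay between -0.33 and 0.14 in both. All 5 had group mean intensities between 6.58 and 52.1, near the dim end of the arrays, and their missing the threshold does not show that their levels were alike. Over the 6 genes without IAA30, the median difference from intact cells was 0.33 in osmotic cells and 0.28 in protoplasts.

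The largest differences among the 28 genes were those of GH3.3 and GH3.1 in protoplasts, opposite in sign to that of GH3.17. GH3.3, an auxin-induced gene whose enzyme joins indole-3-acetic acid to amino acids, had intensities of 1.93, 0.847 and 45.4 in intact cells and 16.4, 5.39 and 35.4 in osmotic cells. In protoplasts it had 998, 1319 and 1304.5. GH3.3 rose in protoplasts by 5.52 ± 0.49 against intact cells (SE, log2 scale, limma adjusted p = 2.1e-05) and by 5.20 ± 0.49 against osmotic cells (limma adjusted p = 6.62e-05). All protoplast arrays lay far above the others, which overlapped, and the osmotic minus intact difference of 0.31 ± 0.49 did not pass (limma adjusted p = 0.784).

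GH3.1, which encodes an enzyme of the same kind, was also highest in protoplasts, while its intact and osmotic arrays overlapped. Its intensity was 3.32, 25.5 and 125 in intact, 36.9, 7.30 and 39.0 in osmotic and 1510, 2539 and 840 in protoplast replicates. GH3.1 rose in protoplasts by 4.95 ± 0.69 against intact cells (SE, log2 scale, limma adjusted p = 2.78e-04) and by 5.20 ± 0.69 against osmotic cells (limma adjusted p = 3.62e-04). It did not pass in osmotic cells, with -0.25 ± 0.69 (limma adjusted p = 0.895). Intact and osmotic levels of both genes are dim, so the sizes hang on the pseudocount. With 1 and 64 in place of 16, the protoplast minus intact difference was 7.57 and 4.02 for GH3.3 and 5.93 and 3.89 for GH3.1.

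Of the remaining measured GH3 list genes, 4 rose in protoplasts against intact cells, all from dim levels. There the log2(intensity + 16) scale understates the fold change, and ratios of intensities are uncertain. The ratio of mean intensities, protoplast over intact, was 2.67 for GH3.9, 4.41 for AT5G13380, 3.99 for AT5G13350 and 20.0 for AT1G23160. AT1G23160 had intensities of 0.612, 1.31 and 1.27 in intact cells and 28.7, 4.14 and 31.0 in protoplasts. Its ratio thus divides by very dim intact values, and its size is uncertain. GH3.9 had intensities of 19.4, 36.0 and 19.5 in intact cells and 70.2, 54.8 and 75.3 in protoplasts, a log2 difference of 1.03 ± 0.32 (SE, limma adjusted p = 0.0241). The call for GH3.9 ended without intact replicate 1 (0.0794) or 3 (0.0755), without protoplast replicate 1 (0.067) or 3 (0.0674), and with centring on hybridisation controls (0.115). AT5G13380 had 1.02 ± 0.16 in osmotic cells (limma adjusted p = 0.00752) and 1.24 ± 0.16 in protoplasts (limma adjusted p = 2.09e-04), and its protoplast and osmotic levels differed by 0.22 ± 0.16 (limma adjusted p = 0.346). On the log2(intensity + 16) scale, AT5G13350 and AT1G23160 had 1.05 ± 0.32 and 1.03 ± 0.30 in protoplasts (limma adjusted p = 0.0224 and 0.0169). Without protoplast replicate 1 these calls ended (limma adjusted p = 0.0737 and 0.0663), and the 8 auxin genes that rose became 5. The AT5G13350 call was lost in 6 of 23 alternatives, with a highest limma adjusted p of 0.0927 (centring on hybridisation controls). That of AT1G23160 was lost in 5 of 23, with a highest limma adjusted p of 0.124 (replicates 1 and 2 alone). The tables name these loci by code alone.

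WES1 (GH3.5), which acts on auxin and on salicylic acid, was measured above the dim range and stayed within its spread. Its intensity was 158, 273 and 122 in intact, 212, 221 and 157 in osmotic and 124, 212 and 193 in protoplast replicates. The log2 difference from intact cells was 0.14 ± 0.30 in osmotic cells and -0.02 ± 0.30 in protoplasts (SE, limma adjusted p = 0.854 and 0.968). The last 3 loci, AT5G51470, AT1G48670 and AT1G48660, did not pass in any comparison. Of the 10 GH3 list genes other than GH3.17, then, 6 rose and 0 fell in protoplasts against intact cells, beside backgrounds of 15.8% and 29.2% of all genes, with a median of 1.03 against -0.10 for all genes. In osmotic cells 1 rose and 0 fell, beside 3.58% and 3.76% of all genes, with a median of 0.16. At an unadjusted p under 0.05 in limma, 0 of the 10 were lower in either comparison.

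**Figure D2:**
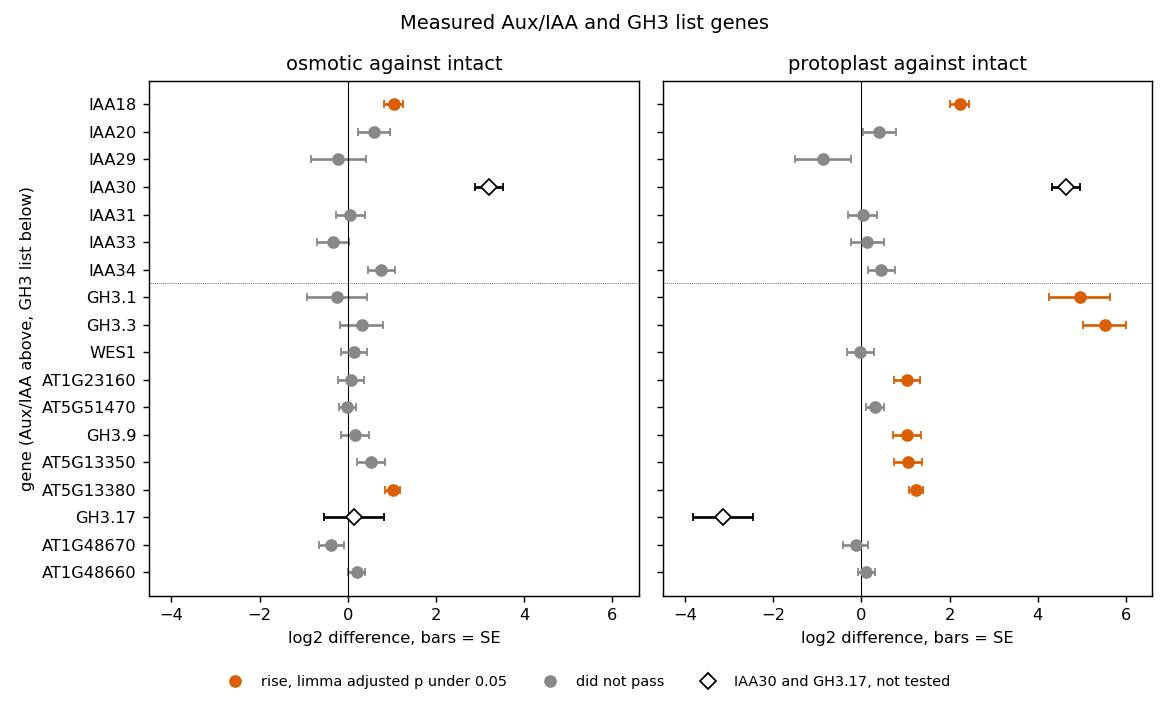
Log2 differences of measured Aux/IAA and GH3 list genes, osmotic minus intact on the left and protoplast minus intact on the right, with bars for the SE. Both panels share the intact arrays. Filled orange points passed the test, grey points did not, and open diamonds are IAA30 and GH3.17, which were not tested. In protoplasts GH3.3 and GH3.1 stand at 5.52 and 4.95 and GH3.17 at -3.14.

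Few genes of auxin supply and removal were measured. Of 4 YUC genes, which encode the flavin monooxygenases of the last step of auxin synthesis, none passed in any comparison, 0 had an unadjusted p under 0.05 in limma, and the lowest was limma adjusted p = 0.116 for YUC4 between protoplasts and osmotic cells. These 4 were the only genes measured of 24 listed for synthesis. YUC4, YUC6 and YUC11 had group mean intensities between 4.16 and 22.8, near the dim end of the arrays. Their missing the threshold does not show that their levels were alike. YUC2, which was brighter, had log2 differences from intact cells of 0.38 ± 0.34 in osmotic cells and 0.37 ± 0.34 in protoplasts (SE). UGT74D1, which encodes a glucosyltransferase that acts on auxin and its oxidised form, had intensities of 83.9, 93.5 and 69.5 in intact, 70.1, 74.2 and 98.1 in osmotic and 30.9, 35.6 and 41.3 in protoplast replicates. The protoplast arrays lay below all others, and UGT74D1 changed by -0.92 ± 0.18 against intact cells (SE, log2 scale, limma adjusted p = 0.00254) and by -0.89 ± 0.18 against osmotic cells (limma adjusted p = 0.00374). AT1G14130, given by locus code, was lower in protoplasts than in osmotic cells by a difference of -0.58 ± 0.15 (limma adjusted p = 0.0109), a call that ended after median centring (limma adjusted p = 0.178) and quantile normalization (limma adjusted p = 0.14).

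Among transcription factor genes that auxin switches on, LBD16, a gene of lateral root initiation, rose in protoplasts. Its intensity was 52.8, 36.8 and 78.0 in intact, 83.3, 58.9 and 75.4 in osmotic and 344, 424 and 330 in protoplast replicates. Every protoplast array lay above every other array, with LBD16 differences of 2.44 ± 0.24 from intact cells (SE, log2 scale, limma adjusted p = 3.35e-05) and 2.11 ± 0.24 from osmotic cells (limma adjusted p = 1.5e-04). In osmotic cells LBD16 had 0.33 ± 0.24, which did not pass (limma adjusted p = 0.467). HAT2, a homeodomain-leucine zipper gene, had intensities of 448, 535 and 1053 in intact, 1599, 1394 and 1393 in osmotic and 1267, 1458 and 462 in protoplast replicates. The osmotic arrays of HAT2 lay above the intact ones, but the difference of 1.18 ± 0.44 did not pass (limma adjusted p = 0.143), nor did that of 0.57 ± 0.44 in protoplasts (limma adjusted p = 0.335). LBD29 and PUCHI did not pass in any comparison.

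**Figure D3:**
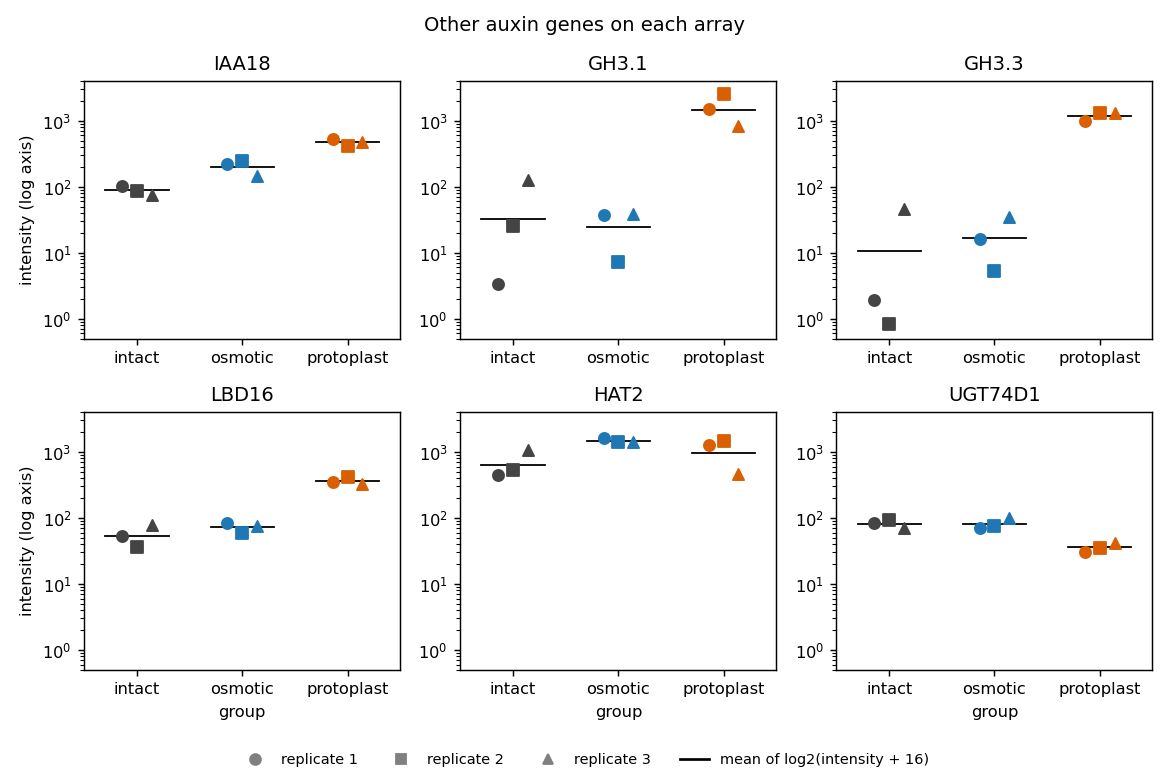
Intensity (log axis) of IAA18, GH3.1, GH3.3, LBD16, HAT2 and UGT74D1 on each array by group, with marker shapes for replicates and bars at the mean of log2(intensity + 16). GH3.1 and GH3.3 lie between 840 and 2539 on the protoplast arrays and stay at or below 125 on all others, while UGT74D1 is lowest in protoplasts, between 30.9 and 41.3.

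Genes with patterns like those of IAA30 and GH3.17 were found by the root mean square distance between their log2 values on the 9 arrays, each centred on its intact mean. This is a description of the arrays, which fall into 3 groups, and any gene with similar group means comes out near. For IAA30, 65 of 13355 other genes lay within a distance of 1 and 4 within 0.5. The nearest 6 with a gene name were ATG8E at 0.52, PUB23 at 0.54, SIS at 0.55, ATG8H at 0.60, NDB2 at 0.75 and pEARLI4 at 0.77. Only 1557 of the 13356 genes have a name other than a locus code. Among all genes the 6 ranked 5, 7, 8, 11, 24 and 28, so most nearer genes have a locus code alone. ATG8E and ATG8H encode ubiquitin-like proteins of autophagosomes, PUB23 a U-box ubiquitin ligase and NDB2 an alternative NAD(P)H dehydrogenase of mitochondria. Pearson's r with IAA30 over the 9 arrays was 0.94 to 0.99 for these genes. Their protoplast minus intact differences lay between 4.63 and 5.42, beside 4.63 for IAA30, and their osmotic minus intact differences between 1.98 and 3.57, beside 3.21.

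For GH3.17, 145 genes lay within a distance of 1 and 3 within 0.5. The nearest with a gene name was EXPA15, a gene of wall-loosening expansin proteins, at 0.47 and r of 0.98 over 9 arrays. EXPA15 had intensities of 3271, 3099 and 877 in intact, 2596, 2714 and 843 in osmotic and 119, 165 and 129 in protoplast replicates, with low intact and osmotic replicates 3, as for GH3.17. The next were VPS9B at 0.78, CaS at 0.79, PRK and PSAN at 0.81 and GH9B8 at 0.86. Among all genes EXPA15 ranked 3 and these 5 ranked 12, 14, 18, 19 and 37, the nearer ones between having a locus code alone. CaS encodes a calcium-binding thylakoid protein, PRK the Calvin cycle enzyme phosphoribulokinase, PSAN a photosystem I subunit and GH9B8 a glycosyl hydrolase. Intact replicate 3 deviated less in these 5 genes than in GH3.17, as the plot of the nearest genes shows, and their protoplast minus intact differences lay between -2.96 and -2.47, beside -3.14.

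**Figure D4:**
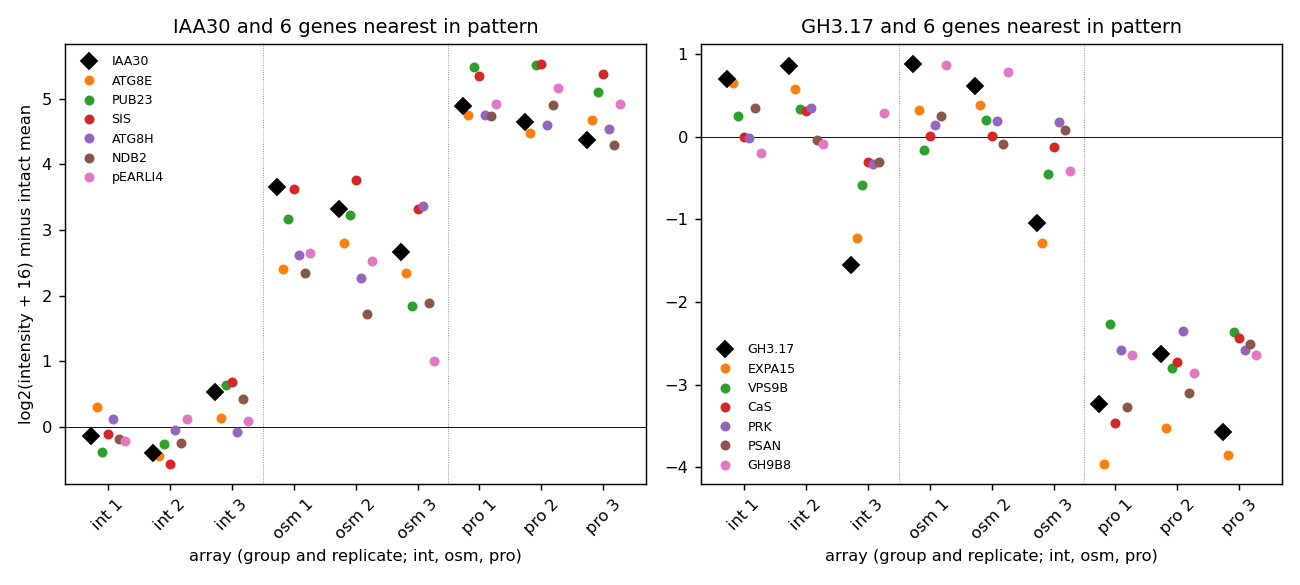
Log2(intensity + 16) minus the gene's intact mean on each array (int, osm and pro with the replicate number) for IAA30, GH3.17 and, for each, the 6 named genes nearest in pattern. Black diamonds are IAA30 and GH3.17. Of the 6 genes beside GH3.17, EXPA15 follows it most closely on intact and osmotic replicates 3.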

How the data were processed

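The authors deposited 1 intensity on a linear scale for every probe set on each array. Per the labels' protocols, biotin-labelled cRNA was made from 750 ng of total RNA. The values show 1 scaling factor per array (trimmed mean near 500 after leaving out the top and bottom 2%). The name of the summarising software was not given in the sources used here. Detection calls were not used. Of 22746 probe sets other than 64 controls, 13513 were assigned to 1 gene, 503 to several and 8730 to none by the array annotation, giving 13356 genes, of which 13286 matched loci of the TAIR10.1 gene table (names only). A gene with several probe sets took the brightest of them.

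The log2(intensity + 16) values entered 1 limma 3.58.1 fit (R 4.3.3) of all 9 arrays by group, with Benjamini-Hochberg adjustment over all genes and a threshold of 0.05. The fit was tested on simulated data. Tables and plots used Python 3.11.15, pandas 2.3.3 and matplotlib 3.10.9. The number of arrays limits the precision, and p-values measure the spread between the biological replicates of the labels. Deviations from group means correlated between same-numbered arrays by 0.101 to 0.31 for osmotic with intact and 0.122 to 0.323 for protoplast with osmotic cells. For protoplast with intact cells the correlation was 0.0217 to 0.146. The main fit did not pair the arrays, since the labels do not say what a number shares. The replicate number entered as a block only in an alternative. Alternatives were a replicate block, 2-group fits, array weights, another variance prior, 3 scalings, a filter on dim genes, other uses of probe sets, pseudocounts of 1 and 64, a threshold of 0.01, fits without the third arrays or with a term for them, and leaving out each array. Both genes and all lists were chosen with earlier results of these data known. Named are all measured Aux/IAA and GH3 list genes, in other lists up to 3 called genes or the 2 with the lowest p, and the 6 nearest named genes in pattern. Promoter motifs and protein features were not analysed here.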

Additional observations from a re-analysis of the deposited data

Results flagged for a closer look

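The response against intact cells differed between protoplasts and osmotic cells for 7 of the 28 other auxin genes, by the direct comparison of protoplasts with osmotic cells (limma adjusted p under 0.05), in which 13.3% of all genes rose and 25.7% fell. On the log2 scale the protoplast minus osmotic difference was 5.20 for GH3.3, 5.20 for GH3.1, 2.11 for LBD16, 1.19 for IAA18 and 0.96 for AT1G23160, and it was -0.89 for UGT74D1 and -0.58 for AT1G14130. The call for AT1G23160 was lost in 10 of 23 alternatives, with a highest limma adjusted p of 0.156 (replicates 1 and 2 alone), and that for AT1G14130 in 3 of 24, with a highest of 0.178 (median centring). IAA30 and GH3.17 were chosen on such differences and were not tested. Single outlying arrays within groups of 3 were not tested.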

How the results depend on the processing

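For GH3.3, GH3.1, LBD16, UGT74D1 and the protoplast values of IAA18, every alternative run kept the main call or its absence in each comparison. The IAA30 difference in osmotic against intact cells was 3.75 with replicates 1 and 2 alone, and leaving out 1 array gave 2.99 to 3.48. The 2 auxin genes that rose in osmotic cells became 4 with array weights and with replicates 1 and 2 alone, and 1 with hybridisation controls, without the dimmest 40% of genes and at an adjusted p under 0.01, with 1 to 3 over single arrays left out. The 8 that rose in protoplasts against intact cells became 5 with hybridisation controls and at 0.01, 4 without the dimmest 40%, and 5 to 8 without 1 array, while the 1 fall became 2 with hybridisation controls and with a pseudocount of 64. Against osmotic cells, the 5 rises became 9 with median centring, and the 2 falls became 1 with median centring, quantile normalization and at 0.01. The 0 falls in osmotic cells stayed 0 in every alternative run. Filters on dim genes test fewer genes. The filter used each gene's mean over all 9 arrays, so GH3.3 and GH3.1 were kept through their high protoplast arrays. Passing it is no added support for their rise. With the replicate number as a block, 2 auxin genes rose in osmotic cells, as without it, and the block changed no count of auxin genes and no call of the 10 named genes that passed in at least 1 comparison, in any of the 3 comparisons. The pseudocount limits the sizes for dim genes, and the number of arrays limits all tests.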

Other observations

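The genes beside IAA30 and GH3.17 in the order of the TAIR10.1 table were looked up after the data had been seen and are given as values. Of all genes, 29.2% fell and 15.8% rose in protoplasts against intact cells. Against osmotic cells 25.7% fell and 13.3% rose in protoplasts, and in osmotic against intact cells 3.76% fell and 3.58% rose. The calls of these neighbours were not checked under the alternative scalings. Next to IAA30, AT3G62110 changed by -0.80 ± 0.18 in osmotic cells and by -2.32 ± 0.18 in protoplasts against intact cells (SE, log2 scale, limma adjusted p = 0.0287 and 9.62e-06), opposite in sign to IAA30. AT3G62080, the second gene on the other side, changed by -0.58 ± 0.18 in protoplasts against intact cells (limma adjusted p = 0.0254). The gene between it and IAA30 was not measured. AT3G62120, the second gene on the side of AT3G62110, changed by -0.88 ± 0.20 in protoplasts (limma adjusted p = 0.0056) and had 0.06 ± 0.20 in osmotic cells (limma adjusted p = 0.923). Beside GH3.17, AT1G28120 changed by -0.80 ± 0.17 in protoplasts (limma adjusted p = 0.00308) and had 0.15 ± 0.17 in osmotic cells (limma adjusted p = 0.662). SCPL45, the second gene on that side and a serine carboxypeptidase-like gene by its symbol, changed by -2.26 ± 0.41 in protoplasts (limma adjusted p = 0.00143) and had 0.15 ± 0.41 in osmotic cells (limma adjusted p = 0.888). On the other side AT1G28135 did not pass in any comparison, and AT1G28140 had -0.44 ± 0.28 in protoplasts against intact cells (limma adjusted p = 0.24) and changed by -0.86 ± 0.28 against osmotic cells (limma adjusted p = 0.0341).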
